A study of Schizosaccharomyces pombe with 9 samples.

Results

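The genes described here encode enzymes of glycerol and dihydroxyacetone metabolism in the fission yeast Schizosaccharomyces pombe. They were chosen by name, as the probe sets whose symbol was gld1, gpd1, gut2, dak1, dak2, tms1 or ald1. The names were picked with earlier results of these arrays in view, so their differences from WT are given as a description. Their p-values against WT are not printed, and counts of members passing a threshold against WT are descriptive only. The probe table held 6 of the 7 names, with 1 probe set each, out of 2899 S. pombe genes with a probe set of their own. The name ald1 had no entry and was not analysed here.

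RNA was measured on 9 Affymetrix expression arrays, 3 for each of 3 strains. SD1 was SPQ-01 lacking rpl32-1, SD2 was SPQ-01 lacking rpl32-2, and WT was the undeleted control strain SPQ-01. The deleted genes are paralogs that encode ribosomal protein L32 (rpl3201 and rpl3202 in the current annotation). All strains grew in YEPD, a rich glucose medium, at 30 °C to an OD600 of 5.0, which the labels call log phase, and the series is about cells that flocculate without mating. The labels do not say how many independent clones stand behind a deletion strain.

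Fission yeast takes glycerol into central metabolism by oxidising it to dihydroxyacetone, which is then phosphorylated to dihydroxyacetone phosphate, an intermediate of glycolysis. In the other direction, dihydroxyacetone phosphate is reduced to glycerol 3-phosphate, the precursor of glycerol and of the glycerol backbone of lipids. A mitochondrial enzyme oxidises glycerol 3-phosphate back to dihydroxyacetone phosphate and passes the electrons to the respiratory chain. Genes for the use of glycerol are known to be repressed by glucose, and glycerol production is known to rise under osmotic stress through the Sty1 kinase and the transcription factor Atf1.

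Expression is given on the log2 scale, with 1 value for each probe set on each array. The median S. pombe probe set lay between 10.002 and 10.167 on the 9 arrays. The arrays also carry S. cerevisiae probe sets, and 95% of those read below 5.17 on average, which served as a background yardstick. Every member value lay above it. RNA came from whole cultures, so fewer cells expressing a gene and less of its RNA per cell cannot be told apart. The S. cerevisiae probe sets for the namesake genes DAK1, DAK2, GPD1 and GUT2 read 3.52 to 5.19 over the 9 arrays, close to or below this level. The deletions matched their labels: rpl3201 read 4.17 to 6.04 in SD1, against 13.88 to 14.45 in WT, and rpl3202 read 7.25 to 8.89 in SD2, against 14.11 to 14.38 in WT, so that the rpl3202 probe set stayed above the background yardstick in its deletion strain.

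The 3 arrays of a strain do not look like 3 independent measurements. For most S. pombe probe sets arrays numbered 1 and 3 gave nearly the same difference between strains. Across S. pombe probe sets these differences correlated at 0.98 to 0.99 (Pearson's r, over the 3 strain pairs), against 0.58 to 0.89 where arrays numbered 2 were involved. Arrays of different strains also shared exactly equal values: 3934 to 4218 of 10928 probe sets between arrays numbered 1, 74 to 80 between those numbered 2 and 168 to 353 between those numbered 3, against 0 to 4 between arrays of different numbers. Whether the arrays of 1 number were summarised together was not tested, and it bears on differences between strains within a number. Probe sets with equal values in both strains on the arrays numbered 1 were left out of these correlations, among them 1559 to 1604 of the 2601 S. cerevisiae probe sets. Those equal only within number 2 or 3 stayed in. Across the S. cerevisiae probe sets, most of them at background, the strain differences correlated at 0.78 to 0.81, against 0.01 to 0.16 with number 2. Among the 18 member differences the gap between numbers 1 and 3 had a median of 0.055, against 0.61 between number 2 and their mean. The closeness of numbers 1 and 3 was in strain differences and not in the values themselves. In WT dak2 read 11.72 on array 1 and 10.38 on array 3, against 10.66 on array 2. Deviations from the strain means correlated at -0.87 to -0.67 between numbers 1 and 3 of different strains. Between numbers 2 and 3 they correlated at 0.41 to 0.75. The labels call all 3 arrays biological replicates, and whether numbers 1 and 3 share RNA, hybridisation or scan was not tested. If numbers 1 and 3 are not separate samples, p-values from the 9 arrays are too small, and otherwise they measure the spread between these samples. Counts of called genes among the members and the lists are given also with numbers 1 and 3 averaged and counted as 1 sample, which leaves 2 per strain.

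SD1 and SD2 were compared with WT to see how each L32 deletion moved these genes. The glycerol dehydrogenase gene gld1 read 6.15-fold lower in SD1 and 9.87-fold lower in SD2 than in WT, the predicted hexitol dehydrogenase gene tms1 and the mitochondrial glycerol 3-phosphate dehydrogenase gene gut2 were lower as well, and dak1, for a dihydroxyacetone kinase, was lower by less. The NAD-dependent glycerol 3-phosphate dehydrogenase gene gpd1 differed little, and the second dihydroxyacetone kinase gene dak2 did not separate the strains.

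On the way from glycerol to dihydroxyacetone phosphate, gld1 encodes the first enzyme, which carries out the NAD-dependent oxidation of glycerol to dihydroxyacetone. It read 10.09, 11.05 and 10.75 on arrays 1, 2 and 3 of SD1 and 9.53, 10.14 and 10.18 on those of SD2. In WT it read 12.59, 14.10 and 13.06. All 6 deletion arrays lay below all 3 WT arrays, while SD1 and SD2 overlapped. The log2 difference from WT was -2.62 ± 0.39 (SE, n = 3 each) in SD1, a 6.15-fold lower signal. It was -3.30 ± 0.39 in SD2, a 9.87-fold lower signal. Within arrays numbered 1, 2 and 3 it was -2.50, -3.05 and -2.31 in SD1 and -3.06, -3.96 and -2.89 in SD2. With numbers 1 and 3 averaged gld1 was at 10.74 ± 0.45 in SD1 and 9.997 ± 0.20 in SD2, against 13.46 ± 0.90 in WT (SD, n = 2 each). Among 2937 S. pombe probe sets this was the 11th lowest difference in SD1 and the 7th lowest in SD2. WT array 2 had the highest value, and without it the differences were -2.19 and -2.88.

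The gene tms1 is annotated as a predicted hexitol dehydrogenase, a relative of the enzymes that oxidise sugar alcohols. Its signal was 8.19, 8.09 and 7.88 in SD1 and 9.04, 8.28 and 8.71 in SD2, against 10.44, 11.08 and 10.01 in WT. Both deletions lay below WT on every array, and SD1 lay below SD2 on every array. The difference from WT was -2.45 ± 0.27 in SD1 (5.48-fold lower) and -1.83 ± 0.27 in SD2 (3.57-fold lower). In SD2 it depended on the number, at -1.41, -2.80 and -1.30 within numbers 1, 2 and 3, beside -2.25, -2.99 and -2.12 in SD1. Averaging numbers 1 and 3 gave -2.59 in SD1 and -2.08 in SD2.

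The dihydroxyacetone kinases Dak1 and Dak2 carry out the second step, the phosphorylation of dihydroxyacetone. For dak1 the arrays read 12.84, 12.71 and 12.56 in SD1 and 13.32, 12.78 and 13.00 in SD2. WT read 13.70, 13.73 and 13.36. No deletion array reached the lowest WT array, and the closest was SD2 array 1. The difference was -0.89 ± 0.16 in SD1 (1.86-fold lower) and -0.56 ± 0.16 in SD2 (1.48-fold lower). In SD2 number 2 gave -0.95, while numbers 1 and 3 gave -0.38 and -0.37.

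The paralog dak2 read 11.10, 10.59 and 9.80 in SD1 and 11.80, 9.51 and 10.45 in SD2, against 11.72, 10.66 and 10.38 in WT. The strains overlapped, and the array number separated the values better than the strain did: the 3 arrays numbered 1 read 11.10 to 11.80, above all 6 others at 9.51 to 10.66. The difference from WT was -0.42 ± 0.59 in SD1, with a 95% interval of -1.78 to 0.93, and -0.33 ± 0.59 in SD2, with an interval of -1.69 to 1.02. In SD2 its sign differed between numbers, at 0.08, -1.15 and 0.07. These intervals span both no change and changes as large as that of dak1. In the gene order of assembly ASM294v3, dak2 is the 24th protein-coding gene from one end of its chromosome, and none of the 4 genes next to it had a named probe set.

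**Figure D1:**
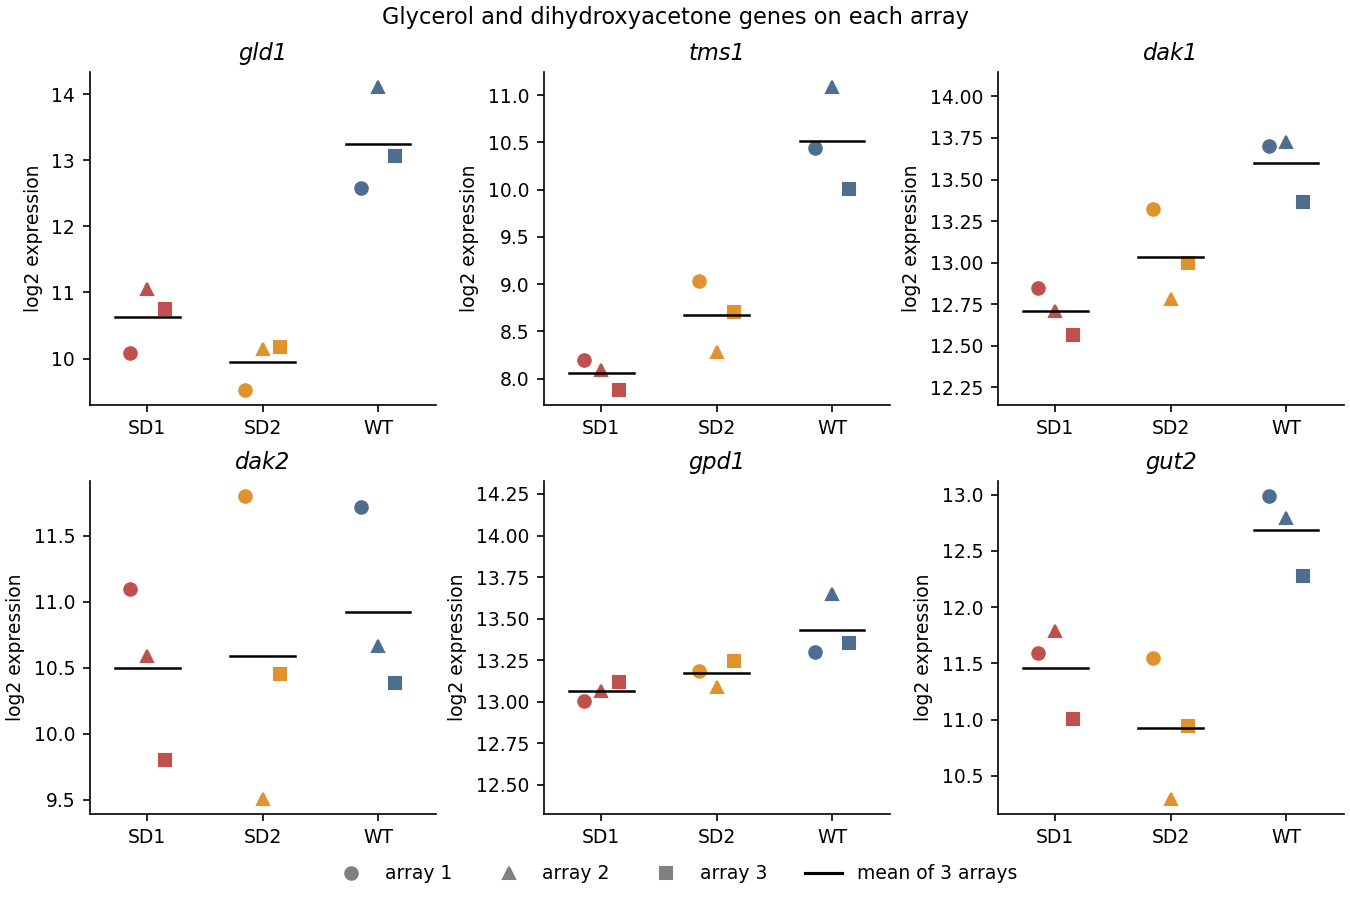
Log2 expression of the 6 genes on each array, in SD1, SD2 and WT, with symbols for array numbers 1 to 3 and bars for the mean of 3 arrays; each panel has its own axis of at least 2 log2 units. For gld1, tms1, dak1, gpd1 and gut2 every deletion array lies below every WT array, whereas for dak2 the 3 arrays numbered 1 lie above the rest in all strains.

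At glycerol 3-phosphate, gpd1 encodes the cytosolic NAD-dependent enzyme that makes it from dihydroxyacetone phosphate, the first step of glycerol production. It read 13.00, 13.07 and 13.12 in SD1 and 13.19, 13.09 and 13.24 in SD2, against 13.30, 13.65 and 13.35 in WT. The deletions lay below WT on every array, by a small margin. The difference was -0.37 ± 0.10 in SD1 (1.29-fold lower) and -0.26 ± 0.10 in SD2 (1.198-fold lower). Number 2 gave -0.58 in SD1 and -0.56 in SD2, while numbers 1 and 3 gave -0.29 and -0.23 in SD1 and -0.11 and -0.11 in SD2.

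The opposite reaction belongs to gut2, the FAD-dependent glycerol 3-phosphate dehydrogenase of mitochondria. It read 11.60, 11.78 and 11.002 in SD1 and 11.55, 10.30 and 10.94 in SD2. WT read 12.99, 12.80 and 12.28. Again no deletion array reached the lowest WT array. The difference was -1.23 ± 0.33 in SD1 (2.34-fold lower) and -1.76 ± 0.33 in SD2 (3.38-fold lower). Within numbers 1, 2 and 3 it was -1.39, -1.01 and -1.28 in SD1 and -1.44, -2.50 and -1.34 in SD2. Averaging numbers 1 and 3 gave -1.17 in SD1 and -1.94 in SD2.

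In SD1 5 of the 6 genes passed an adjusted p of 0.05 as lower (all but dak2), beside 23.7% of all S. pombe probe sets called lower in that comparison. With numbers 1 and 3 averaged 4 passed, beside 18.0%, and gpd1 was the one lost. In SD2 4 of the 6 passed as lower (gld1, tms1, dak1 and gut2), beside 14.3% of all probe sets, and with numbers 1 and 3 averaged 4 passed, beside 9.64%. None passed as higher in either deletion, beside 19.5% of all probe sets in SD1 and 17.6% in SD2 (16.2% and 13.5% with numbers 1 and 3 averaged). Single arrays decided some of these calls: dak1 in SD2 did not pass without WT array 1, WT array 2, SD2 array 2 or SD2 array 3, gut2 in SD1 did not pass without WT array 2 or SD1 array 3, and gpd1 in SD1 did not pass without SD1 array 1. Without WT array 1, gpd1 passed in SD2. Without the arrays numbered 2, which leaves numbers 1 and 3, 3 of 6 passed as lower in SD1 (gld1, tms1 and dak1), beside 15.4% of all probe sets, and 2 of 6 in SD2 (gld1 and tms1), beside 6.33%. If numbers 1 and 3 are not separate samples, that fit has 1 sample per strain and its counts rest on no spread between samples. The 3 deletion arrays lay below the 3 WT arrays for 5 of 6 genes in each deletion, beside 28.6% of all probe sets in SD1 and 20.2% in SD2. The median log2 difference of the 6 genes was -1.06 in SD1 and -1.16 in SD2, beside -0.03 and 0.01 over all probe sets. Both comparisons use the same WT arrays. Because the genes were chosen with these comparisons known, the counts describe them and support nothing further.

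**Figure D2:**
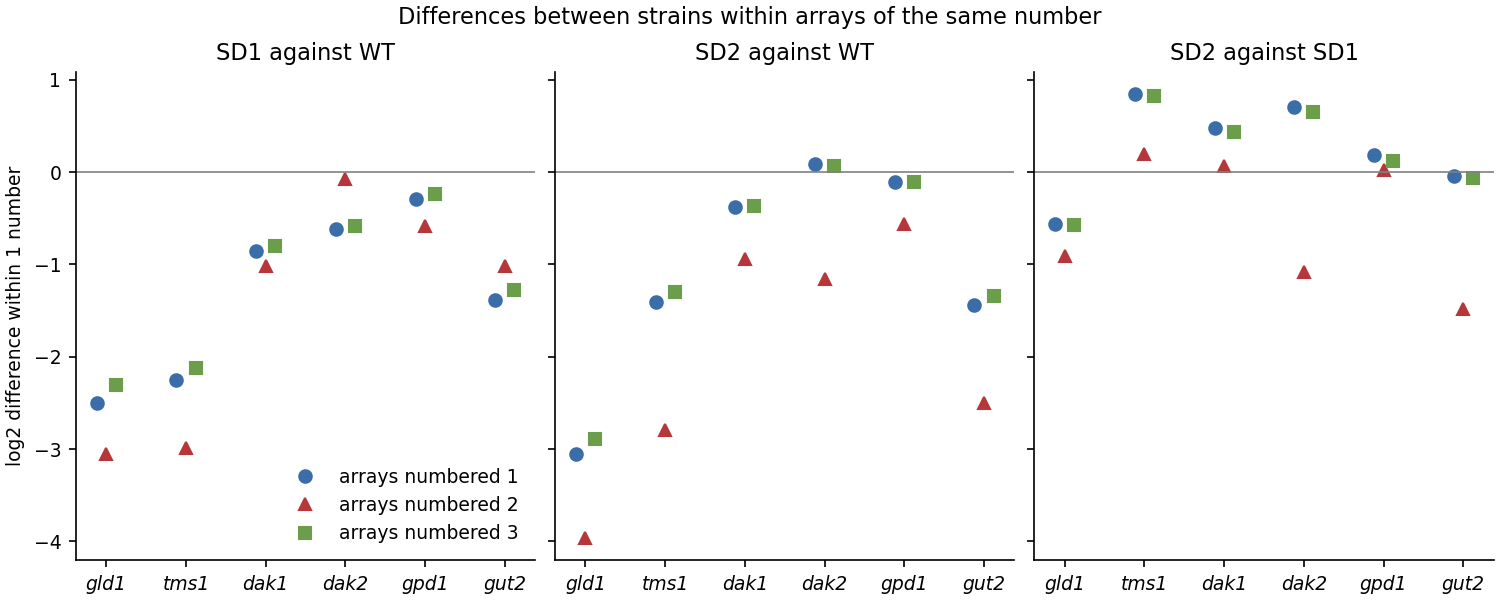
Log2 difference between strains for each gene, computed separately within the arrays numbered 1, 2 and 3. Circles (number 1) and squares (number 3) nearly coincide for every gene, and triangles (number 2) lie apart, with the widest gap, 1.76, for dak2 in SD2 against SD1.

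SD2 was compared with SD1 to ask whether the paralog lost mattered for these genes. None of the 6 passed in the limma fit on 9 arrays, beside 0.17% of all probe sets, and none passed with numbers 1 and 3 averaged, beside 0.136%. With the array number fitted as a block none passed either, beside 16 higher and 9 lower among 2937 probe sets. The limma adjusted p was then 0.12 for gld1, 0.176 for dak1 and 0.264 for tms1. It was 0.349 for gut2, 0.55 for gpd1 and 0.901 for dak2. The values below are from fits without the block, and their intervals were wide enough to hold sizeable differences. For gld1 the value was -0.68 ± 0.39 in log2 terms (95% interval -1.58 to 0.22, limma adjusted p = 0.569), lower in SD2 within each number at -0.56, -0.91 and -0.58. For gut2 it was -0.53 ± 0.33 (interval -1.29 to 0.23, limma adjusted p = 0.615), and nearly all of it came from number 2 at -1.49, beside -0.05 and -0.06 in numbers 1 and 3. The unadjusted limma p of gut2 was 0.147 on 9 arrays and 0.0467 with numbers 1 and 3 averaged, where its adjusted p was 0.831.

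On the other side of 0, tms1 was at 0.62 ± 0.27 (interval -0.0044 to 1.24, limma adjusted p = 0.44). It was the 1 gene of the 6 whose SD2 and SD1 arrays did not overlap, beside 18.3% of all probe sets with no overlap in either direction. For dak1 the value was 0.33 ± 0.16 (interval -0.03 to 0.68, limma adjusted p = 0.486), positive in each number but 0.07 in number 2. The gene gpd1 had the tightest interval, -0.12 to 0.34 around 0.11. For dak2 the interval ran from -1.26 to 1.44. The fitted signs thus divided the genes, with gld1 and gut2 below 0 and the other 4 above it, although dak2 was at -0.20 with numbers 1 and 3 averaged. No gene passed the test in either direction.

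**Figure D3:**
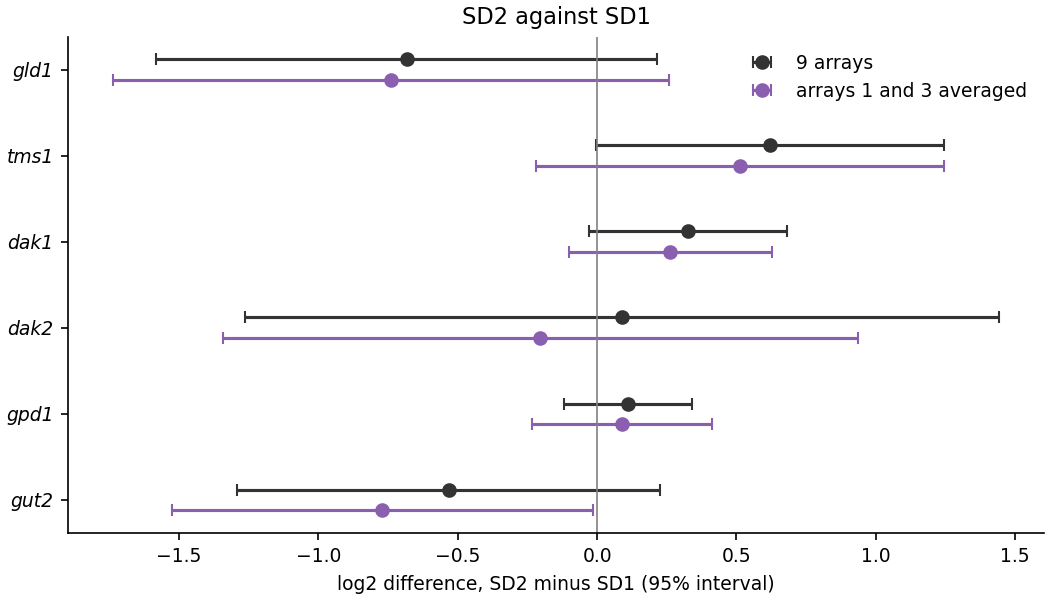
Log2 difference SD2 minus SD1 for the 6 genes with its 95% interval, from the limma fit on 9 arrays (dark) and with arrays 1 and 3 averaged (purple). On 9 arrays every interval crosses 0, and that of dak2 is the widest, at -1.26 to 1.44.

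Genes with a course like that of a member were sought over all 9 arrays. The measure was the root mean square distance between log2 values, after the WT mean of each probe set had been subtracted, over 2916 other single-gene probe sets. It follows size as well as direction, and all values share the same 9 arrays. The 6 genes nearest to gld1 were gal7 (distance 0.51) and gal1 (0.57), both of the galactose pathway, the hexose transporter genes ght3 (0.57) and ght4 (0.81), the ribosomal protein gene rps1401 (0.81) and the galactosyltransferase gene gmh1 (0.83). Their differences from WT ran from -2.11 to -3.02 in SD1 and from -1.95 to -3.42 in SD2. Within WT the order of the arrays was not shared by all of them: gld1 and gmh1 were highest on WT array 2 by 0.85 and 0.86 above their WT means, whereas ght3 and ght4 were highest on WT array 1.

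Among the members themselves tms1 was the 12th nearest to gld1 (0.99) and gut2 the 21st (1.38). The genes dak1, gpd1 and dak2 were farther off, at ranks 186, 617 and 1093. The ranks differed in the other direction, where gld1 was the 54th nearest to tms1 and only the 1819th nearest to gut2. Nearest to tms1 were gmh1 (0.28), mug114 (0.45) and rps1401 (0.48). Nearest to gut2 were mug143 (0.36), the DnaJ-type chaperone gene psi1 (0.45) and the Hsp70 gene ssa1 (0.45). The nearest genes of gut2 did not include any of those nearest to gld1, while gmh1 and rps1401 were among the nearest of both gld1 and tms1. The distance follows size and gut2 fell by less than gld1 and tms1, so this does not tell whether their courses differ in shape.

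**Figure D4:**
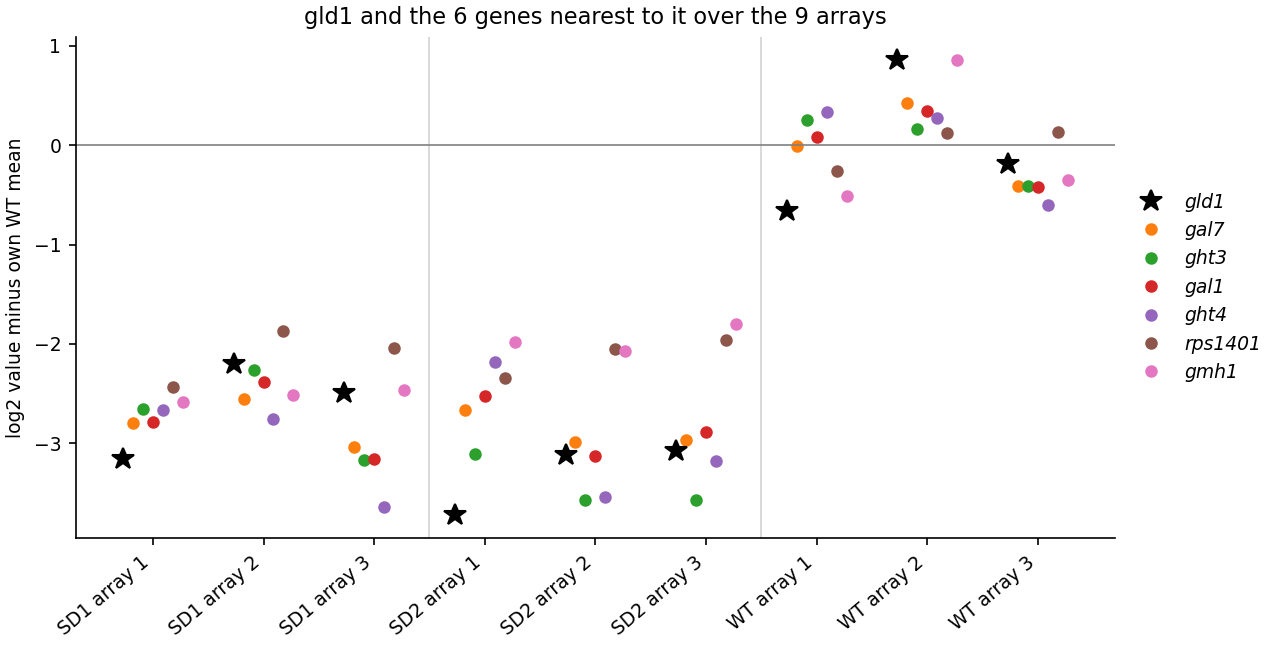
Log2 values of gld1 (black stars) and of the 6 genes nearest to it on each array, with the WT mean of each gene set to 0. In SD1 and SD2 all 7 genes lie between -1.80 and -3.72, while in WT they scatter from -0.66 to 0.86.

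The genes next to the members on the chromosomes were taken as the nearest 2 protein-coding genes on each side in assembly ASM294v3. Those measured differed from WT by less than gld1, tms1 or gut2 did. These were the members with the largest differences, and they were chosen with earlier results in view. Of 24 neighbours 9 had a named probe set. In SD1 2 of them rose and 1 fell, and in SD2 1 rose and 0 fell. These counts are near or below the shares over all probe sets, 19.5% higher and 23.7% lower in SD1 and 17.6% higher and 14.3% lower in SD2. The 1 that fell in SD1 was pfd5, a prefoldin subunit gene next to gpd1, at -0.21 (limma adjusted p = 0.0419). Near dak1, the gene sap114 rose in both deletions, by 0.36 in SD1 (limma adjusted p = 0.00184) and by 0.30 in SD2 (0.00637). In SD2 that was farther from 0 than the member gpd1, at -0.26. Next to gld1, taf7, a subunit gene of the transcription factor TFIID, was at 0.32 in SD1 (limma adjusted p = 0.00282) and 0.14 in SD2 (0.11), and the mitochondrial mismatch repair gene msh1 was at -0.06 and -0.08. Next to gut2, the gene nmt1 of thiamine synthesis was at 0.19 in SD1 and -0.0031 in SD2, and the methyltransferase gene set11 was at 0.11 and 0.09.

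Other enzymes around the same metabolites came from lists of related genes. The counts in these lists stand beside 19.5% of all probe sets called higher and 23.7% lower in SD1, and 17.6% higher and 14.3% lower in SD2. Of 4 other measured genes at glycerol 3-phosphate and triose phosphate 1 rose and 0 fell in each deletion, and it was gpd2, the paralog of gpd1. Its arrays read 12.28, 12.28 and 12.30 in SD1 and 12.19, 12.10 and 12.16 in SD2, against 11.89, 11.81 and 11.90 in WT. It was higher in SD1 by 0.42 ± 0.06 (limma adjusted p = 0.000896) and in SD2 by 0.28 ± 0.06 (0.00984). With numbers 1 and 3 averaged the rise in SD2 no longer passed (0.0835), while that in SD1 did (0.0184). The paralogs thus lay on opposite sides of 0, with gpd1 at -0.37 and -0.26. The triose phosphate isomerase gene tpi1 and the aldolase gene fba1, which make and use dihydroxyacetone phosphate in glycolysis, lay between -0.10 and -0.04 and did not pass. The gluconeogenic gene fbp1 was at -1.30 ± 0.79 in SD1 and -1.46 ± 0.79 in SD2 (limma adjusted p = 0.218 and 0.194), with -2.65 and -2.64 in number 2 beside values of -0.62 to -0.87 in numbers 1 and 3.

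Downstream of glycerol 3-phosphate, 5 of 6 measured genes of the lipid list fell in SD1 and 3 in SD2, and 3 in each with numbers 1 and 3 averaged, beside 23.7% and 14.3% of all probe sets (18.0% and 9.64% averaged). The acyltransferase gene gpt2, whose enzyme puts the first fatty acid on glycerol 3-phosphate, fell by 1.04 ± 0.11 on the log2 scale in SD1 (limma adjusted p = 0.000228) and by 0.72 ± 0.11 in SD2 (0.00205). The gene ayr1, for the reductase of the acyl dihydroxyacetone phosphate route, fell by 0.98 ± 0.09 and by 0.66 ± 0.09. The diacylglycerol acyltransferase gene dga1 fell by 0.35 in SD1 (0.0312), and that call was lost with numbers 1 and 3 averaged (0.0567). The list also held cds1, which in fission yeast encodes the replication checkpoint kinase and not a lipid enzyme, and which fell by 0.62 and by 0.47. Without cds1, 4 of 5 fell in SD1 and 2 of 5 in SD2, and 2 of 5 in each with averaging. Among single arrays, leaving out WT array 2, SD1 array 2 or SD1 array 3 ended the call on dga1, and leaving out WT array 2, WT array 3 or SD2 array 1 ended that on cds1 in SD2.

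Of 4 measured genes on the list of aldehyde and alcohol dehydrogenases, 1 rose and 1 fell in each deletion, with and without averaging of numbers 1 and 3. The alcohol dehydrogenase gene adh4 rose by 1.38 ± 0.14 in SD1 (limma adjusted p = 0.000164) and by 1.09 ± 0.14 in SD2 (0.000872). The gene etr1, whose product is a mitochondrial enoyl reductase of that enzyme family, fell by 0.96 and by 0.67. The glyoxalase gene glo1, which removes methylglyoxal formed from triose phosphates, fell by 0.52 in SD1 and by 0.41 in SD2 (limma adjusted p = 0.0134 and 0.0464). The other measured gene of its list, glo3, belongs to vesicle traffic by function and did not pass. The transaldolase gene tal1 fell by 0.46 in SD1 (0.024) and was at -0.40 in SD2 (0.0503), where it passed with numbers 1 and 3 averaged (0.0453), and the glucose 6-phosphate dehydrogenase gene zwf1 did not pass in either. The call on glo1 in SD1 was lost without SD1 array 3, and that in SD2 without any 1 of 7 arrays (all but WT array 3 and SD2 array 1). The call on tal1 in SD1 was lost without WT array 1, WT array 2, SD1 array 2 or SD1 array 3, and tal1 passed in SD2 without WT array 3, SD1 array 1 or SD2 array 1.

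Glucose repression of gld1 and stress control of gpd1 are the routes by which these genes are best known to be regulated, so the regulators were listed too. Of 21 measured glucose signalling and repression genes 9 fell and 1 rose in SD1, and 8 fell and 0 rose in SD2, beside 23.7% and 14.3% of all probe sets called lower. With numbers 1 and 3 averaged 6 fell in SD1 and 7 in SD2, with 0 higher in either, beside 18.0% and 9.64% called lower. The protein kinase A catalytic subunit gene pka1 fell by 1.28 ± 0.13 and by 1.17 ± 0.13, the adenylate cyclase gene cyr1 by 0.90 and by 0.64, and the kinase regulatory subunit gene cgs1 by 0.63 and by 0.80. The call on cgs1 in SD1 was lost with numbers 1 and 3 averaged (adjusted p = 0.0533). The zinc finger gene rsv1 was at -0.96 in SD1 (limma adjusted p = 0.0931) and fell by 1.54 in SD2 (0.0221), where array 2, at 5.0508, was below the background yardstick. These were picked as the called genes with the largest changes. The 1 gene that rose in SD1 was gpa2, by 0.50 (limma adjusted p = 0.0325), a call lost with numbers 1 and 3 averaged (0.158). In SD2 gpa2 was at 0.15 and did not pass. The gene rst2 fell by 0.53 and by 0.59 (limma adjusted p = 0.00264 and 0.00271), and scr1 was at -0.02 and -0.26 and did not pass. The list's median was -0.33 in both deletions. The falls of cgs1 and rsv1 in SD2 did not pass without WT array 2 or SD2 array 2, that of cgs1 in SD1 did not pass without WT array 2, WT array 3, SD1 array 1 or SD1 array 3, and rsv1 passed in SD1 without WT array 1.

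In the Sty1 stress pathway 3 of 17 measured genes rose and 2 fell in each deletion, with 2 and 2 in SD1 and 1 and 2 in SD2 when numbers 1 and 3 were averaged. These counts are close to or below the shares over all probe sets, 19.5% higher and 23.7% lower in SD1 and 17.6% higher and 14.3% lower in SD2. The transcription factor gene atf1 read 9.87, 10.25 and 10.09 in SD1 and 10.11, 10.18 and 10.28 in SD2, against 11.04, 11.53 and 11.13 in WT. It fell by 1.16 ± 0.14 in SD1 and by 1.04 ± 0.14 in SD2. The Sty1-activated kinase gene srk1 fell by 0.53 and by 0.63, the calmodulin-dependent kinase gene cmk2 rose by 1.24 and by 0.99, and the AP-1-like factor gene pap1 rose by 0.40 in SD1 and was at 0.30 in SD2. For cmk2 numbers 1 and 3 did not coincide. Within numbers 1, 2 and 3 it was at 0.80, 1.17 and 1.75 in SD1 and 0.42, 1.16 and 1.39 in SD2. The kinase gene sty1 was at 0.23 in SD1 (limma adjusted p = 0.0651) and rose by 0.30 in SD2 (0.0322). The gene prr1 rose by 0.235 in SD1 (0.0222) and by 0.269 in SD2 (0.0175). Neither sty1 nor prr1 passed with numbers 1 and 3 averaged. Of 12 stress genes known as Sty1 and Atf1 targets 7 fell and 0 rose in each deletion (6 in SD1 and 7 in SD2 with numbers 1 and 3 averaged), beside the same 23.7% and 14.3% called lower. Among them the trehalose synthesis gene tps1 fell by 1.26 and by 0.99, the trehalase gene ntp1 by 1.19 and by 0.90, the nuclear envelope protein gene ish1 by 1.198 and by 1.16, and the catalase gene ctt1 by 1.10 and by 0.80. The median of these targets was -0.87 in SD1 and -0.71 in SD2, and gpd1, known as a target of the same pathway, was at -0.37 and -0.26. The calls on ctt1 in SD2 and on ish1 in both deletions did not pass without WT array 2, ctt1 did not without SD2 array 2 or 3, and ish1 in SD2 did not without WT array 3, SD2 array 1 or SD2 array 2. The rise of pap1 in SD1 did not pass without WT array 1, WT array 2, SD1 array 2 or SD1 array 3, and pap1 passed in SD2 without SD2 array 1.

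**Figure D5:**
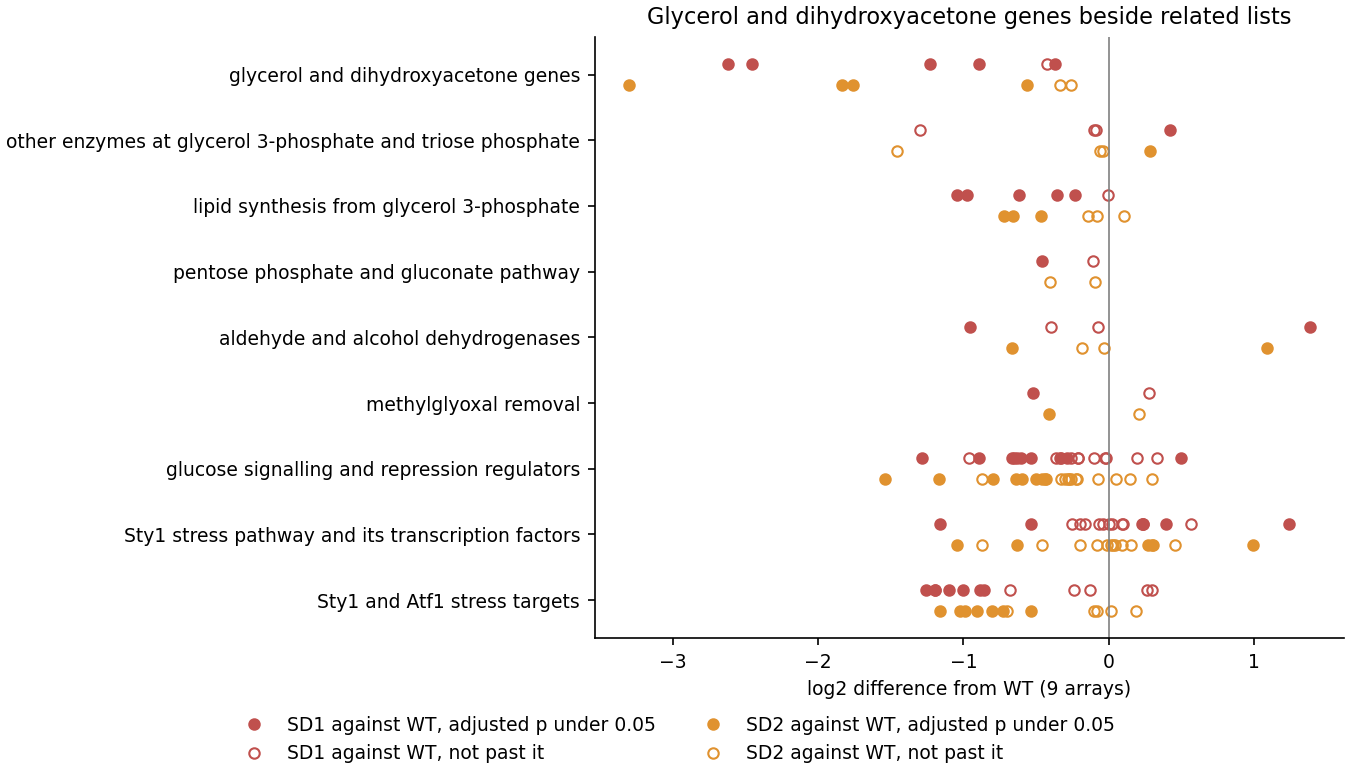
Log2 difference from WT for each measured gene of the glycerol and dihydroxyacetone set and of the related lists, from the fit on 9 arrays, with SD1 (red) above SD2 (orange) in each row and filled points for an adjusted p under 0.05. The top row reaches -2.62 in SD1 and -3.30 in SD2, both for gld1, beyond the farthest gene of the other lists, rsv1 at -1.54 in SD2. The top row was chosen with earlier results in view, so its reach is a description. Within it dak1, dak2 and gpd1, at -0.89 to -0.26, lie inside the range of the other lists.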

How the data were processed

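The authors deposited 1 log2 value for each probe set on each array, made with RMA and Partek per the submitters' processing notes. Versions, settings and joint normalization are not given in the sources used here. Per the labels' protocols, biotinylated cRNA came from 500 ng of Trizol-extracted total RNA.

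Of 10928 probe sets 5538 were named, 2937 for S. pombe and 2601 for S. cerevisiae, and symbols were updated by gene number to assembly ASM294v3. Where a listed gene had several probe sets the brightest was used. Arrays give no depth, so their number limits precision. Differences and p-values came from limma 3.58.1 (R 4.3.3, 1 mean per strain over 9 arrays, eBayes), with Benjamini-Hochberg adjustment over the 2937 S. pombe probe sets and calls at an adjusted p under 0.05. The script was tested on simulated data drawn as independent arrays without a number effect, so that test does not cover dependence between arrays.

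Members, lists and alternatives were chosen with earlier results of these data known. Averaging arrays 1 and 3, with and without a block, and leaving out the arrays numbered 2 were added after these values were seen. Other alternatives were median centring, quantile normalization, the block, leaving out low values, a trended robust fit, 2 strains only, a shift of 32 and each array left out. Named were all members, up to 4 called genes of each other list (2 where none was called), and the nearest genes by distance (6 for gld1, 3 for members whose strain means span over 1). A few other list genes, such as gpa2, rst2, scr1, sty1 and prr1, are given outside this rule and outside the counts of kept calls.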

Additional observations from a re-analysis of the deposited data

How the results depend on the processing

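The strains share replicate numbers. Over the 9 pairs of arrays with 1 number, deviations from the strain means correlated at -0.10 to 0.87, with a median of 0.59. The 18 pairs with different numbers ran from -0.87 to 0.75, with a median of -0.48. The 3 deviations of a strain sum to 0, so positive values within numbers go with negative ones between numbers. Of the 9 pairs with 1 number, WT and SD2 number 2 lay below 0. Since not every pair was above 0.1, the main fit did not pair the samples by number, although arrays of 1 number also share equal values. Any shift shared by arrays of 1 number therefore stays in the spread of that fit. With the replicate block 694 probe sets were lower in SD2 against WT (419 without it), and 16 were higher and 9 lower in SD2 against SD1 (1 and 4). The block also gave calls in SD2 against WT on tal1 (limma adjusted p = 0.0114, against 0.0503 without it) and pap1 (0.00439, against 0.101). With numbers 1 and 3 averaged and the block, 328 were higher and 240 lower in SD2 against WT (518 and 419 on 9 arrays), and 0 were lower in SD2 against SD1. Without the arrays numbered 2, 453 were lower in SD1 against WT (696 on 9 arrays), and 309 were higher and 186 lower in SD2 against WT. That fit has 1 sample per strain if numbers 1 and 3 are not separate samples. Leaving out 1 array at a time gave 455 to 572 higher and 497 to 751 lower in SD1 against WT, 383 to 520 and 261 to 486 in SD2 against WT, and 1 to 3 and 3 to 7 in SD2 against SD1. The count lower in SD2 against WT was 261 when WT array 2 was left out, the same when SD2 array 2 was, and 270 when SD2 array 3 was. Without WT array 2, 3 were higher and 7 lower in SD2 against SD1.

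Of 18 member results 13 stayed as they were, called or not called, under all 19 alternatives. Those called throughout were gld1 and tms1 in each deletion against WT and dak1 in SD1. The rest of the 13 were never called, namely every dak2 result and every gene in SD2 against SD1. Beyond the single arrays already named, the call on dak1 in SD2 was lost with those 2 strains alone, that on gpd1 in SD1 with quantile normalization and with averaging, that on gut2 in SD2 without the arrays numbered 2, and those on dak1 in SD2, gpd1 in SD1 and gut2 in SD1 both without the arrays numbered 2 and with averaging and the block. For dak2 the difference ran from -0.94 to 0.21 in SD2 against WT and from -0.52 to 0.68 in SD2 against SD1, with no call. Of 67 results on other named genes 47 likewise stayed as they were, called or not called, under all alternatives, and 0 called results changed sign. Leaving out 1 array ended or gave a call on cds1, tal1, glo1, rsv1, cgs1, pap1, ish1, ctt1 and dga1. The causes were not tested.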
